A study of Mus musculus with 6 samples.

Results

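The enzymes of glycolysis and the pentose phosphate pathway, with the sugar and lactate transporters and the pyruvate dehydrogenase kinases that border them, were followed in mouse monocytes treated with interferon beta (IFN-beta). The set held 35 genes, found by gene name among the probes of the array, with the older name Pkm2 read as Pkm. They were measured by 90 of the 56598 probes, and all 35 were among the 19500 genes tested. The probe used for each of them lay well above background on all 6 arrays.

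The study compared 2 groups of 3 one-colour arrays. The first was monocytes cultured for 60 h in M-CSF (macrophage colony-stimulating factor, 20 ng/mL) with 100 U of mouse IFN-beta, and the second, called control, was monocytes cultured for the same time in M-CSF alone. The monocytes of both groups came from bone marrow (C57BL/6J mice, aged 6 to 8 weeks) and were purified with magnetic beads. The comparison asks how a type I interferon changes gene expression in monocytes while they mature. Whether replicates stem from different mice or cultures is not stated, so p-values measure only the spread between these samples, which may be technical.

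Glycolysis splits glucose into pyruvate in the cytosol. Most of its steps can be carried out by several isoenzymes that are encoded by separate genes and are typical of different tissues. Hexokinase traps glucose in the cell, phosphofructokinase commits it to the pathway, and lactate dehydrogenase turns pyruvate into lactate, which monocarboxylate transporters carry out. The pentose phosphate pathway branches off after hexokinase and yields NADPH in its oxidative arm and ribose phosphate in its non-oxidative arm. Pyruvate dehydrogenase kinases restrain the entry of pyruvate into mitochondria. Many of these genes are known targets of hypoxia-inducible factor, and activated macrophages are known for a high glycolytic flux.

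Levels are given throughout as log2 of the processed signal minus the 75th percentile of the array, so that 0 is the level of that percentile, and differences are IFN-beta minus control on that log2 scale. That percentile was a signal of 244, 236 and 242 on the IFN-beta arrays and of 550, 528 and 305 on control arrays 1, 2 and 3. The lowest level counted as well above background was -4.29, -4.28 and -3.93 on the IFN-beta arrays. On control arrays 1, 2 and 3 it was -5.39, -5.38 and -4.43. Control arrays 1 and 2 were nearly alike, with a robust SD of 0.110 between them over 17522 genes, against 0.241 to 0.308 between IFN-beta arrays and 0.332 to 0.351 between control 3 and the other controls. All 10 monocyte and macrophage markers lay above background on all arrays. Their summed level was 1008 to 1052 times the percentile on the IFN-beta arrays and 546 to 777 on the control arrays. With IFN-beta, 2 of them were higher and 3 lower at an adjusted p under 0.05 in limma. The summed level of 17 fibroblast and connective tissue markers was 3.15 to 3.70 times the percentile on the IFN-beta arrays, 636 and 732 on control arrays 1 and 2, and 2.15 on control array 3. Of 8 erythroid markers the sum was 2.93 to 4.13 on the IFN-beta arrays, 162 and 149 on control arrays 1 and 2, and 1.84 on control array 3. Neutrophil markers summed to 981 to 1202 on the IFN-beta arrays and to 536 to 729 on the control arrays. Basophil and mast cell markers summed to 58.8 to 86.1 on the IFN-beta arrays and to 5.67 to 9.86 on the control arrays. The part of these other cells in the results below was not tested, and in a bulk sample fewer cells of a type and less RNA per cell cannot be told apart. Values against control array 3 alone are given beside the calls, from a limma fit in which the lone control is assumed to vary like the IFN-beta arrays.

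Of the 35 genes, 6 were higher and 4 lower with IFN-beta at an adjusted p under 0.05 in limma, and 25 did not pass the test. The genes that rose were the glucose transporters Slc2a3 and Slc2a6, the hexokinase Hk3, the phosphofructokinase Pfkp, its activator-forming enzyme Pfkfb3 and the pentose phosphate enzyme Rpia. The genes that fell were the phosphofructokinase Pfkm, the aldolase Aldoc, the lactate dehydrogenase Ldhb and the pyruvate dehydrogenase kinase Pdk1. Together these were 10 of 35, beside 19.8% of all genes tested. The higher calls made up 17.1% of the set, beside 11.8% of all genes tested, and the lower calls 11.4%, beside 8.04%. The median difference of the 35 genes was 0.19, beside 0.10 over all genes tested. However, it was the lower of these medians with quantile normalization (-0.020 beside 0.086), normexp with percentile scaling (0.085 beside 0.18) and the deposited values (0.081 beside 0.11). The same held with normexp and quantile normalization (-0.0063 beside 0.056), no filter on dim probes (0.19 beside 0.31) and control 3 alone (-0.14 beside -0.10). The groups did not overlap with IFN-beta higher in 9 of the 35 genes, beside 23.4% of all genes, or with IFN-beta lower in 5, beside 16.8%. Groups were separate in 14 of 35 in all, beside 40.1%. All of these shares lay near those of the whole array. Of all called genes, 59.5% were higher with the scaling on the percentile, against 32.4% with scaling on spike-in probes and 69.9% after normexp background correction.

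**Figure D1:**
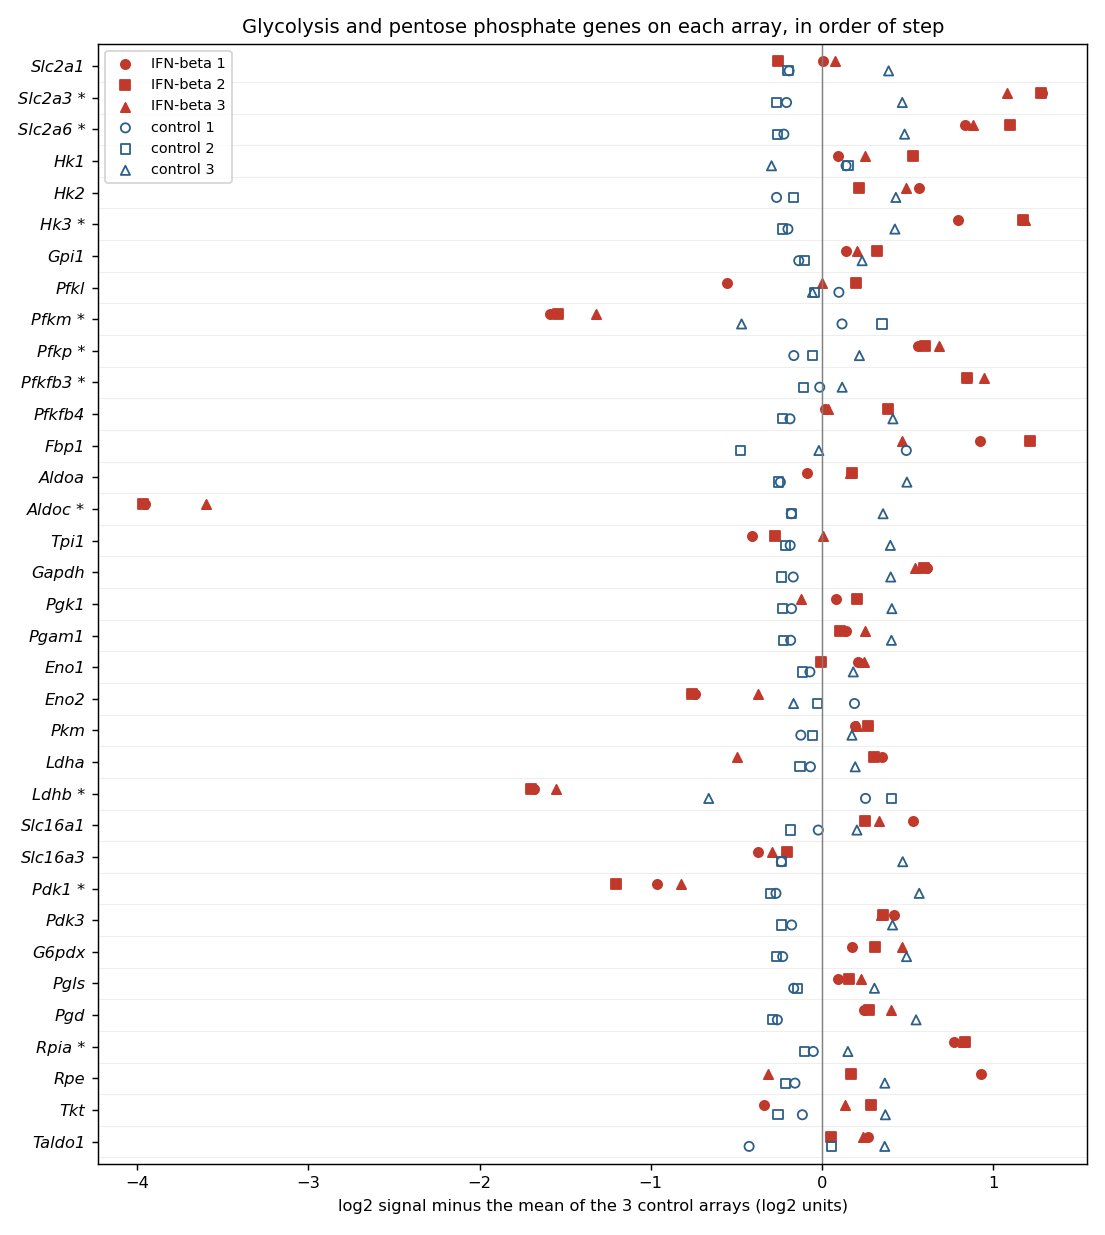
Level of each of the 35 genes on each array as log2 signal minus the mean of the 3 control arrays (horizontal axis, log2 units), with genes in order of step down the page, filled red symbols for IFN-beta arrays above open blue symbols for control arrays, and an asterisk at the 10 called genes. Aldoc lies farthest to the left, with a difference of -3.84, and control array 3 (open triangles) lies to the right of the other controls for 29 of the 35 genes.

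At the entry of sugar into the cell, 3 of the 6 transporter and hexokinase genes rose, beside 11.8% of all genes tested. Slc2a3 encodes the high-affinity glucose transporter GLUT3. Its level was 2.90, 2.90 and 2.69 on the IFN-beta arrays, against 1.41, 1.35 and 2.08 on control arrays 1, 2 and 3. The groups did not overlap, and control 3 was the highest control. The difference was 1.22 ± 0.23 (SE, n = 3 each), a 2.32-fold rise with an adjusted p of 0.0104 in limma. Slc2a6 encodes GLUT6, a less studied member of the same family. It had levels of 4.50, 4.76 and 4.54 on the IFN-beta arrays and 3.44, 3.40 and 4.14 on the control arrays, and the difference was 0.94 ± 0.24 (adjusted p = 0.0298). The 2 tested probes of each of these transporters had a higher mean with IFN-beta, but the groups overlapped at the second Slc2a3 probe. Slc2a1, the widely expressed transporter GLUT1, had 3.75, 3.49 and 3.82 on the IFN-beta arrays and 3.55, 3.54 and 4.13 on the control arrays. Its groups overlapped, the difference was -0.06 (95% interval -0.56 to 0.44), and its sign turned without IFN-beta array 2 or control 3.

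Hk3, the hexokinase typical of myeloid cells, was the third gene of sugar entry that rose. Its level was 6.67, 7.06 and 7.07 on the IFN-beta arrays, against 5.68, 5.65 and 6.31 on the control arrays, with no overlap and a difference of 1.05 ± 0.23 (adjusted p = 0.0190). Both of its probes were higher, by 1.05 and 1.49. Hk2, the inducible hexokinase, had 2.87, 2.52 and 2.79 on the IFN-beta arrays and 2.04, 2.13 and 2.73 on the control arrays. Its groups overlapped through control 3 only. Hk1, the general hexokinase, differed by 0.29 with an adjusted p of 0.333 in limma. Its 3 tested probes were all higher, by 0.29 to 0.84, the last with an adjusted p of 0.0159 over all probes in limma. That last probe was dim, at -3.38, -3.11 and -2.88 on the IFN-beta arrays and -3.98, -3.98 and -3.92 on the control arrays. Control 3 was the lowest control at the Hk1 probe used (4.52) and the highest control at the others. Set against control 3 alone, Slc2a3, Slc2a6 and Hk3 differed by 0.75, 0.46 and 0.62 and none passed the test (adjusted p from 0.0871 to 0.256). The call of Slc2a6 was also lost without IFN-beta array 1, 2 or 3 or control array 1 or 2 (adjusted p from 0.0641 to 0.116), and with the replicate number as a block (0.0525). That of Hk3 was lost without IFN-beta array 2 or 3 or control array 1 or 2 (0.0698 to 0.0779).

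Phosphofructokinase showed opposite changes of its isoenzymes. Pfkm, the muscle-type subunit, fell, and Pfkp, the platelet-type subunit, rose. Pfkm had -0.18, -0.13 and 0.08 on the IFN-beta arrays, against 1.52, 1.76 and 0.94 on control arrays 1, 2 and 3. All IFN-beta arrays lay below all controls, and control 3 was the lowest control. The difference was -1.48 ± 0.24 (SE, n = 3 each), 2.79-fold lower with an adjusted p of 0.00531, from the single probe of the gene at chr15:97962713-97962772 (mm9, plus strand). It was -1.01 against control 3 alone (adjusted p = 0.0408), a 2.02-fold lower level. Pfkp had 3.95, 3.99 and 4.07 on the IFN-beta arrays and 3.22, 3.33 and 3.60 on the control arrays, a difference of 0.62 ± 0.17 (adjusted p = 0.0403). Of its 5 probes, 1 was of opposite sign (-0.06). The call of Pfkp was lost against control 3 alone (0.40, adjusted p = 0.280), with the replicate number as a block (0.0579), and without IFN-beta array 1, 2 or 3 or control array 1 or 2 (0.0804 to 0.188). Pfkl, the liver-type subunit, had 0.18, 0.93 and 0.74 on the IFN-beta arrays and 0.84, 0.69 and 0.68 on the control arrays. Its groups overlapped, with a difference of -0.12 whose sign turned without IFN-beta array 1.

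Pfkfb3 forms the sugar bisphosphate that activates phosphofructokinase, and it rose. Its level was 3.64, 3.64 and 3.74 on the IFN-beta arrays, against 2.78, 2.69 and 2.91 on the control arrays. The groups did not overlap, and the controls lay close together. The difference was 0.88 ± 0.15 (adjusted p = 0.00780), and 0.76 against control 3 alone (adjusted p = 0.0710). A second probe, whose bases lie in separate exons, had -1.21, -1.12 and -0.87 on the IFN-beta arrays and -2.79, -3.21 and -3.58 on the control arrays, a difference of 2.13 ± 0.23 (adjusted p = 0.000855 over all probes). Its paralogue Pfkfb4 had 2.85, 3.22 and 2.87 on the IFN-beta arrays and 2.65, 2.61 and 3.25 on the control arrays, with overlap and a difference of 0.15. Fbp1, which runs the phosphofructokinase step in reverse, differed by 0.87 with an adjusted p of 0.0750 and overlapping groups.

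Several of the called genes had a probe that joins exons, so that its 60 bases report spliced mRNA. They are shown because each gives a reading of the gene apart from the probe used above. Positions are those of the array files on mm9, all on the minus strand except that of Pdk1.
Slc2a3, chr6:122681586-122682419: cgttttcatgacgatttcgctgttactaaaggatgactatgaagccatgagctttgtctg
Pfkp, chr13:6581718-6583872: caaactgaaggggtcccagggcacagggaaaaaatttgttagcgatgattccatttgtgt
Pfkfb3, chr2:11404189-11405602: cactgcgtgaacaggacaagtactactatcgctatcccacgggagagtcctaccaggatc
Ldhb, chr6:142444206-142447028: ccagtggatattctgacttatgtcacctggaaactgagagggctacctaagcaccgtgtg
Pdk1, chr2:71721635-71721929: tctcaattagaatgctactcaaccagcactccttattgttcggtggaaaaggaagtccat
The differences at these probes were 0.97 ± 0.35 for Slc2a3, 0.70 ± 0.19 for Pfkp, 2.13 ± 0.23 for Pfkfb3, -2.02 ± 0.38 for Ldhb and -0.91 ± 0.35 for Pdk1 (SE, n = 3 each). All 5 had the sign of the probe used for the gene. With p adjusted over all 29794 probes tested, an addition made after seeing the data, those of Pfkp (0.0344), Pfkfb3 (0.000855) and Ldhb (0.0102) passed the threshold, and those of Slc2a3 (0.0880) and Pdk1 (0.102) did not.

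**Figure D2:**
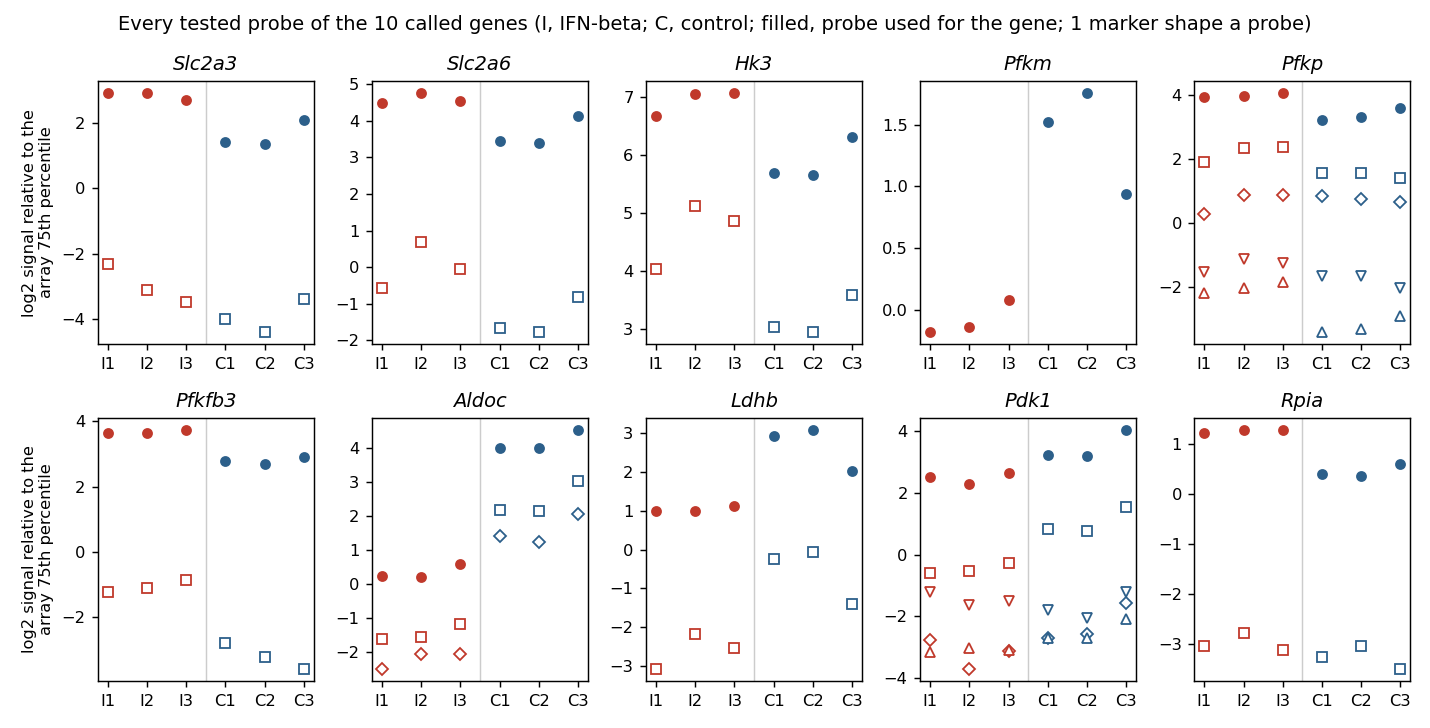
Level of every tested probe of the 10 called genes (vertical axis, log2 signal relative to the 75th percentile of the array) on IFN-beta arrays 1 to 3 in red, left of control arrays 1 to 3 in blue, with 1 marker shape for each probe and filled markers for the probe used. All 3 Aldoc probes are lower on every IFN-beta array, and 1 of the 5 probes of Pfkp and 1 of the 5 of Pdk1 run the other way.

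Aldolase gave the largest difference of the set. Aldoc, the brain-type aldolase C, had 0.24, 0.23 and 0.59 on the IFN-beta arrays, against 4.01, 4.01 and 4.55 on control arrays 1, 2 and 3. The lowest control lay far above the highest IFN-beta array, and control 3 was the highest of all. The difference was -3.84 ± 0.21 (SE, n = 3 each), 14.3-fold lower with an adjusted p of 7.77e-05. It ranked 105 among the 19500 genes from the lowest difference upward. The fall was 18.3-fold against control 3 alone (-4.20, adjusted p = 0.000844), where it ranked 12. Its 3 probes, which lie between chr11:78139897 and chr11:78140257 (mm9, plus strand), gave differences of -3.90 to -3.77. The call held in all 20 other settings tried, with differences from -4.20 to -3.66 and adjusted p up to 0.0262, the highest within slide 1, where a lone IFN-beta array was set against 3 controls. Aldoa, the general aldolase A of the same step, had 8.03, 8.30 and 8.29 on the IFN-beta arrays and 7.88, 7.87 and 8.62 on the control arrays. Its groups overlapped, with a difference of 0.08 (95% interval -0.47 to 0.64), and the sign turned in 9 of the 20 other settings.

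The remaining trunk of the pathway is carried by Gpi1, Aldoa, Tpi1, Gapdh, Pgk1, Pgam1, Eno1, Pkm and Ldha. Each is the broadly expressed form of its step, from glucose phosphate isomerase to lactate dehydrogenase. Phosphofructokinase, which lies between them and is described above, is left out of this group. In limma 0 of these 9 genes passed the adjusted threshold, beside 19.8% of all genes tested, and 1 had an unadjusted p under 0.05. Their differences ran from -0.23 for Tpi1 to 0.59 for Gapdh, with adjusted p from 0.0837 to 0.905 in limma. Of the 4 probes of Tpi1, 2 were of opposite sign, and the probes ran from -0.23 to 0.89. The signs of Gpi1, Aldoa, Pgk1, Pgam1, Eno1, Pkm and Ldha turned under at least 1 other scaling. Gapdh had 8.03, 8.01 and 7.96 on the IFN-beta arrays and 7.25, 7.18 and 7.81 on the control arrays, without overlap at this probe only. Its 7 probes differed by 0.22 to 0.59, and at all the others control 3 lay within or above the IFN-beta arrays. Pkm had 7.26, 7.34 and 7.28 on the IFN-beta arrays and 6.95, 7.02 and 7.25 on the control arrays, with a difference of 0.22. Its 4 probes differed by 0.22 to 0.64, and the groups were again without overlap at the probe used only. Against control 3 alone the 9 genes differed by -0.63 to 0.18, again with 0 past the adjusted threshold and 1 past the unadjusted one. Without control 3, 2 of them passed (Gapdh and Pgam1).

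Enolase and lactate dehydrogenase each set a tissue-restricted form against a general one. Eno2, the neuron-type enolase, had -0.20, -0.21 and 0.17 on the IFN-beta arrays and 0.74, 0.52 and 0.38 on the control arrays. The groups did not overlap, and the difference of -0.63 ± 0.19 missed the threshold with an adjusted p of 0.0529; without control 3 it passed (-0.71, adjusted p = 0.0164). Eno1, the general form, had 6.73, 6.52 and 6.77 on the IFN-beta arrays and 6.45, 6.41 and 6.71 on the control arrays, with overlap.

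Ldhb, the heart-type subunit, which favours the use of lactate, fell. Its level was 1.01, 0.99 and 1.13 on the IFN-beta arrays, against 2.94, 3.09 and 2.03 on control arrays 1, 2 and 3. The groups did not overlap, and control 3 was the lowest control. The difference was -1.64 ± 0.28 (SE, n = 3 each), 3.13-fold lower with an adjusted p of 0.00729. It was -0.98 against control 3 alone (adjusted p = 0.0357), and against controls 1 and 2 it was -1.98. Ldhb and Pfkm were thus higher on the 2 arrays with connective tissue transcripts, and both passed the test without those arrays. Ldha, the muscle-type subunit, which favours the making of lactate, had 7.37, 7.32 and 6.52 on the IFN-beta arrays and 6.95, 6.89 and 7.21 on the control arrays. IFN-beta array 3 was the lowest of all at this probe, the difference was 0.05 (95% interval -0.54 to 0.65), and its sign turned without IFN-beta array 1 or 2 or control array 2. At the second probe of Ldha, IFN-beta array 3 was the highest of all (2.83, beside 2.80 on control 3), and the difference was 0.17.

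Of the lactate transporters, neither passed the test. Slc16a1 (MCT1) had 1.74, 1.46 and 1.54 on the IFN-beta arrays and 1.18, 1.02 and 1.41 on the control arrays, without overlap, and differed by 0.37 (adjusted p = 0.172). Slc16a3 (MCT4) had 4.03, 4.19 and 4.11 on the IFN-beta arrays and 4.16, 4.16 and 4.87 on the control arrays. Its difference was -0.29, and -0.76 against control 3 alone (adjusted p = 0.0743).

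The pyruvate dehydrogenase kinase Pdk1 fell. Its level was 2.52, 2.28 and 2.66 on the IFN-beta arrays, against 3.21, 3.18 and 4.05 on control arrays 1, 2 and 3. All IFN-beta arrays lay below all controls, and control 3 was the highest. The difference was -0.995 ± 0.264 (SE, n = 3 each), 1.99-fold lower with an adjusted p of 0.0365, and -1.56 against control 3 alone (adjusted p = 0.0133). Of its 5 probes, 4 were lower and 1 was of opposite sign (0.24), and with the mean of all probes the call was lost. It was also lost without IFN-beta array 1, 2 or 3 or control array 1 (adjusted p from 0.0592 to 0.126). Pdk3, a paralogue, had 1.92, 1.85 and 1.85 on the IFN-beta arrays and 1.32, 1.26 and 1.91 on the control arrays, with overlap, a difference of 0.37, and 1 of its 2 probes of opposite sign.

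In the pentose phosphate pathway, 1 of the 7 genes rose, beside 11.8% of all genes tested. Rpia, the isomerase that forms ribose phosphate, had 1.23, 1.29 and 1.28 on the IFN-beta arrays, against 0.41, 0.36 and 0.61 on the control arrays. The IFN-beta arrays lay within a narrow band above all controls, with a difference of 0.81 ± 0.16 (SE, n = 3 each; adjusted p = 0.0116). Its second probe differed by 0.29. The call was lost against control 3 alone (0.66, adjusted p = 0.101) and without IFN-beta array 2 or control array 1 or 2 (0.0564 to 0.0666). The oxidative arm, which makes NADPH through G6pdx, Pgls and Pgd, differed by 0.16 to 0.32 in all, with 0 of 3 genes past the adjusted or the unadjusted threshold in limma, and by -0.24 to -0.15 against control 3 alone. Without control 3, G6pdx (0.57, adjusted p = 0.0151) and Pgd (0.59, adjusted p = 0.00839) passed. Rpe, Tkt and Taldo1 of the non-oxidative arm differed by 0.26, 0.03 and 0.19. For Rpe, the epimerase, IFN-beta array 1 stood at 2.02 and the other IFN-beta arrays at 1.26 and 0.78, and its exon-joining probe differed by 0.93 (adjusted p = 0.0113 over all probes), so that its probes disagree in size.

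The isoenzymes of a step were then set against each other on each array, as the difference of their 2 log2 levels, compared between the groups. This contrast does not change when all levels of an array are shifted alike, as in scaling on the percentile or on spike-in probes. Quantile normalization did change it, with -3.565 in place of -3.92 for Aldoc relative to Aldoa. Of 13 such pairs, the groups did not overlap in 11, each with a p of 0.1 in the exact two-sided permutation test, which is the smallest that 3 against 3 arrays can give, and 0.118 after adjustment over the 13 pairs. The pairs were chosen with earlier results known and several share a gene (Hk3, Hk2, Hk1, Pfkp or Slc2a1), so the count of 11 was set against no other pairs. The difference between Aldoc and Aldoa was lower by 3.92 with IFN-beta (SD 0.20 on IFN-beta and 0.12 on control arrays). That between Pfkm and Pfkp was lower by 2.10 (SD 0.08 and 0.60), and that between Ldhb and Ldha by 1.70 (SD 0.55 and 0.75). Against control 3 alone these 3 contrasts were -3.78, -1.41 and -0.84. For Ldhb and Ldha, IFN-beta array 3 and control array 3 lay close together, at -5.39 and -5.19. The Ldha probe used there was low on IFN-beta array 3, which its second probe was not.

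Slc2a3 relative to Slc2a1 was higher by 1.27 with IFN-beta, and by 1.19 against control 3 alone. Slc2a6 relative to Slc2a1 was higher by 0.997, and by 0.90 against control 3 alone. Pdk3 relative to Pdk1 was higher by 1.37 (1.53 against control 3 alone). Hk3 relative to Hk2 was higher by 0.63 in both comparisons, and Slc16a1 relative to Slc16a3 by 0.66 (0.93 against control 3 alone). Pfkfb4 relative to Pfkfb3 differed by -0.73, Pfkl relative to Pfkp by -0.73 and Eno2 relative to Eno1 by -0.78, and against control 3 alone by -1.03, -0.46 and -0.43 in that order. The groups overlapped for Hk3 relative to Hk1 (0.76, and 0.037 against control 3 alone, p = 0.3, exact permutation test), where control 3 lay within the range of the IFN-beta arrays, and for Hk1 relative to Hk2 (-0.13, p = 0.8, exact permutation test), whose sign turned in 5 of 20 other settings. The other 12 contrasts kept their sign in all 20. For Hk3 relative to Hk1, the place of control 3 depends on the Hk1 probe, since control 3 was the lowest control only at the Hk1 probe used.

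**Figure D3:**
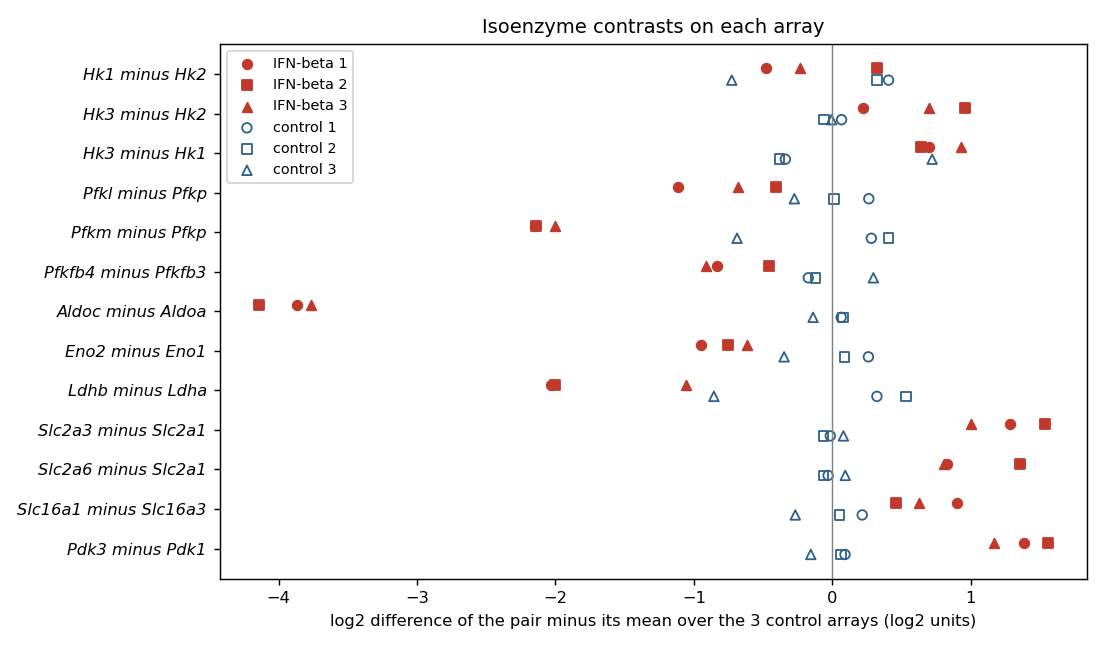
The 13 isoenzyme contrasts on each array (horizontal axis, difference of the pair's 2 log2 levels minus its mean over the 3 control arrays, in log2 units), with filled red symbols for IFN-beta arrays above open blue symbols for control arrays. The groups are separate in 11 pairs, most widely for Aldoc minus Aldoa at -3.92, and overlap for Hk1 minus Hk2 and Hk3 minus Hk1.

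The choice of control arrays moved the set as a whole. Control 3 lay above both other controls for 29 of the 35 genes (82.9%), beside 73.9% of all genes tested, with a median difference of 0.55, beside 0.35 over all genes. Against controls 1 and 2, 13 of the 35 genes were called higher and 5 lower, beside 33.1% and 15.1% of all genes, with a median of 0.34; these 2 arrays being nearly alike, p-values from them are too small if they share a source. Against control 3 alone, 0 were called higher in limma (5 at an unadjusted p under 0.05) and 4 lower, beside 5.22% and 4.33% of all genes, with a median of -0.14, beside -0.10 over all genes. The 4 lower genes were again Pfkm, Aldoc, Ldhb and Pdk1. Every IFN-beta array lay below control 3 for 17 of the 35 genes, beside 41.5% of all genes, and above it for 11, beside 28.6%. The comparisons with different controls share the IFN-beta arrays.

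**Figure D4:**
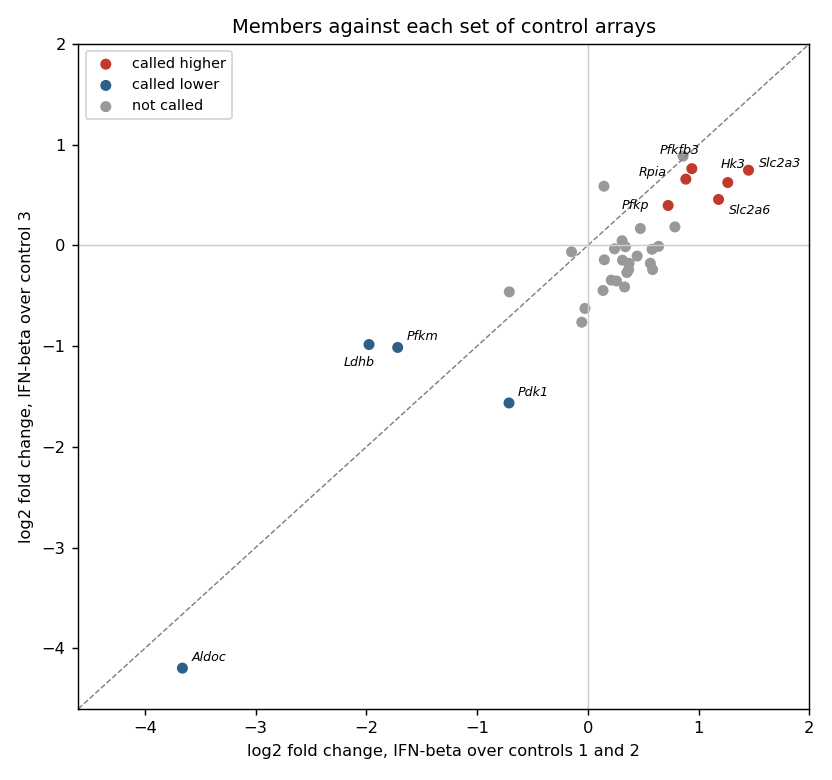
Log2 difference of the 35 genes against control 3 alone (vertical axis) and against controls 1 and 2 (horizontal axis), with called genes named, red for higher and blue for lower, and a dashed line of equality. Aldoc stands apart at -4.20 and -3.66, the 6 genes called higher lie between 0.40 and 0.76 on the vertical axis, and most other genes lie below the line.

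Slide and group were partly joined, since slide 1 held IFN-beta array 1 and the 3 control arrays, and slide 2 held IFN-beta arrays 2 and 3. With slide as a block, 0 of the 35 genes were called higher in limma (5 at an unadjusted p under 0.05) and 1 lower, Aldoc. Within slide 1, where the lone IFN-beta array is assumed to vary like the controls, 2 of which are nearly alike, the counts were 0 higher (4 unadjusted) and 1 lower, again Aldoc, at -3.95 with an adjusted p of 0.0262. The 9 other called genes kept their direction there, at 1.29 for Slc2a3, 0.84 for Slc2a6, 0.79 for Hk3, 0.56 for Pfkp, 0.85 for Pfkfb3, 0.77 for Rpia, -1.59 for Pfkm, -1.68 for Ldhb and -0.96 for Pdk1.

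The promoters of the set, 250 bases before to 50 after each start, were searched on both strands for the core of the hypoxia response element (ACGTG or GCGTG), the E-box (CACGTG, which holds ACGTG), the interferon-stimulated response element and a STAT site (TTCNNNGAA). RefSeq windows on GRCm38.p6 were found for 34 of the 35 genes, 48 windows in all; Slc2a3 was not matched. Either hypoxia core occurred in 37 of the 48 windows (77.1%), beside 43.8% of 32851 windows of all genes. ACGTG occurred in 41.7%, beside 19.6%, and GCGTG in 58.3%, beside 32.4%. Both cores hold a CG, and base composition was not matched. A window with either core was found for 5 of the 5 matched genes that rose, 4 of the 4 that fell and 20 of the 25 that passed no test. A gene counted here if any of its windows held a core, and the share of all genes counted this way was not taken. The interferon-stimulated response element was in 1 window (Rpe), 2.08% beside 3.44%, and the STAT site in 2 (Pfkm and Aldoc), 4.17% beside 8.30%. The E-box was in 8.33%, beside 7.15%. These matches are letters only.

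Single windows of a gene that rose, Pfkfb3, of genes that fell, Aldoc and Pdk1, and of the uncalled Ldha are shown, since all of them carry the core, with ACGTG and GCGTG on either strand in capitals.
Pfkfb3, chr2:11502041-11502340, minus strand: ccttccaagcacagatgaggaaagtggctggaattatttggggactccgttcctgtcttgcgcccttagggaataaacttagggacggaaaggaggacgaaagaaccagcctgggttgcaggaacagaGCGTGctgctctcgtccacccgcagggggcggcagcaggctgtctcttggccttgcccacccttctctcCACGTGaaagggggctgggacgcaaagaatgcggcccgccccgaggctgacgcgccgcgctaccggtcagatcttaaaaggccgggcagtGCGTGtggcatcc
Aldoc, chr11:78322823-78323122, plus strand: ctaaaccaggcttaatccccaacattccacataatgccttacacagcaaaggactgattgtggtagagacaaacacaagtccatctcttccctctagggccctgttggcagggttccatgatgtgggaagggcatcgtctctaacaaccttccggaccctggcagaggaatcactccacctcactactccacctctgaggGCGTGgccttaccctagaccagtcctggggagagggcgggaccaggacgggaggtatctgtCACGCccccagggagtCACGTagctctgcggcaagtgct
Pdk1, chr2:71872974-71873273, plus strand: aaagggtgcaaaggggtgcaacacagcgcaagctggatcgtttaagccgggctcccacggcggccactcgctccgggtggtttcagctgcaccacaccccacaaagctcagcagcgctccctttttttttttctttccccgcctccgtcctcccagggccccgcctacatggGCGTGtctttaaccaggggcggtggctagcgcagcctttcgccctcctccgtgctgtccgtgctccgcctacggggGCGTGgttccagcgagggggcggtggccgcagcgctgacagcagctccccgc
Ldha, chr7:46845554-46845853, plus strand: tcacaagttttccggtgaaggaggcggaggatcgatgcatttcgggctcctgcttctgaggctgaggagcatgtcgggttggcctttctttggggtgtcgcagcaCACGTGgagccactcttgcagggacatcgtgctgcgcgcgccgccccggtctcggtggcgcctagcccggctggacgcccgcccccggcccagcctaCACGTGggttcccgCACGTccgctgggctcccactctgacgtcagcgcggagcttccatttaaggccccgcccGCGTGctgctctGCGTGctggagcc
With overlapping matches on both strands counted as 1 site, the Ldha window holds 3 sites of ACGTG and 2 of GCGTG, and that of Aldoc holds 1 and 2, while Ldha differed by 0.05 and Aldoc by -3.84. The Pdk1 window holds 2 sites of GCGTG and none of ACGTG, and the Pfkfb3 window holds 1 of ACGTG and 2 of GCGTG.

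Other genes of the same pathways were counted alike. For this list and those below, the shares of all genes tested were 11.8% called higher and 8.04% called lower. Of 34 further glycolysis and pentose phosphate genes, 22 were tested, 3 were called higher and 0 lower (2 lower at an unadjusted p under 0.05, limma), with a median of 0.13. The higher calls were 13.6% of the list, near the share over all genes. The 3 were Ldhc, the testis-type lactate dehydrogenase (2.73, and 2.19 against control 3 alone), Adpgk, a glucose kinase that uses ADP (1.17), and Tigar, which breaks down the activator that Pfkfb3 forms (0.89). Adpgk (0.80, adjusted p = 0.152) and Tigar (0.52, adjusted p = 0.194) did not pass against control 3 alone. The calls of Adpgk and Tigar were lost without at least 1 array, among them IFN-beta array 2 and control array 1 for both (adjusted p of 0.0550 to 0.0558 for Adpgk and 0.0573 to 0.0987 for Tigar, which also lost it without IFN-beta array 1 or 3 or control array 2).

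Of 12 tested genes for the entry of pyruvate into mitochondria, 1 was higher and 2 lower, with a median of -0.03. Pdk2, a paralogue of Pdk1, had -3.47, -3.11 and -3.05 on the IFN-beta arrays and -0.40, -0.34 and -1.18 on the control arrays. It fell by 2.57 ± 0.26, and by 2.03 against control 3 alone. Pcx, pyruvate carboxylase, fell by 1.85, and Pdp2, a pyruvate dehydrogenase phosphatase, rose by 0.78, with 1 of its 2 probes of opposite sign. Neither passed against control 3 alone (-0.87, adjusted p = 0.0749 for Pcx, and 0.37, adjusted p = 0.340 for Pdp2). The call of Pcx was lost without IFN-beta array 1, 2 or 3 or control array 1 (adjusted p from 0.0501 to 0.0562), and that of Pdp2 without any array except control 3 (0.0907 to 0.155).

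Of 14 regulators, 2 were higher and 4 lower, beside 11.8% and 8.04% of all genes tested, with a median of 0.09. Epas1, a hypoxia-inducible factor subunit, had -0.56, -0.53 and -0.18 on the IFN-beta arrays and 4.53, 4.25 and 1.396 on control arrays 1, 2 and 3. It fell by 3.82 ± 0.75, and by 1.82 against control 3 alone. Its controls 1 and 2, the arrays with connective tissue transcripts, were far above control 3. Arnt, the partner subunit, fell by 0.78, Txnip, a brake on glucose uptake, fell by 0.68, and Mlx, the partner of the glucose-sensing factors, rose by 0.90, with 1 of its 2 probes of opposite sign. Against control 3 alone Mlx passed (1.15, adjusted p = 0.0244), and Arnt (-0.71, adjusted p = 0.161) and Txnip (-0.82, adjusted p = 0.0623) did not. Hif1a, added after its values were seen, differed by 0.37 with an adjusted p of 0.134, and 1 of its probes was of opposite sign. The calls of Arnt (without IFN-beta array 1 or 3 or control array 1 or 2), Txnip (without any array except control 3) and Mlx (without IFN-beta array 2 or 3 or control array 1) were lost, with adjusted p of 0.0504 to 0.0956.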

How the data were processed

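Gene expression was measured on 6 one-colour Agilent arrays, 3 of IFN-beta-treated and 3 of control monocytes. The deposited scanner files hold a spot intensity (processed signal) made by the authors with Agilent Feature Extraction 12.0.3.1, per the file headers, with no normalization between arrays. A deposited value matrix holds log2 values whose normalization is not given in the sources used here, although the submitters' processing notes name limma; these log2 values served only as an alternative. Outlier spots (135 to 174 per array) were left out, spots of 1 probe were averaged, and log2 of the signal minus the 75th percentile of the array was analysed. A probe was tested if well above background on all arrays of at least 1 group (29794 probes). A gene took its brightest probe by mean. Arrays limit precision by their number, 3 a group; 0 spots were saturated.

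Groups were compared in limma (version 3.58.1 under R 4.3.3; tables were read by data.table, version 1.17.8) with the functions lmFit and eBayes on 4 residual degrees of freedom, with Benjamini-Hochberg adjustment over 19500 genes and a threshold of 0.05, and the script was tested on simulated data. Isoenzyme contrasts used an exact permutation test. The members and lists were chosen with earlier results of these data known. Array values are given for called genes and for pairs whose groups did not overlap, and of other lists at most 4 called genes by lowest p. Alternatives covered normalization, background (normexp, offset 50), spike-in scaling, the deposited matrix, filters, probe choice, array weights, replicate and slide blocks, control 3 alone and leaving out each array. Probe positions are those of the files (mm9); promoters are from RefSeq (GRCm38.p6). Probes were not remapped to a genome.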

Additional observations from a re-analysis of the deposited data

How the results depend on the processing

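Of the 10 called genes, Aldoc kept its call in all 20 alternatives, Pfkm and Ldhb in 18, Slc2a3 in 16, Pfkfb3 in 15, Pdk1 and Rpia in 12, Hk3 in 11, and Slc2a6 and Pfkp in 9, and none changed direction. The number of genes called, 3868, became 1693 with no filter on dim probes, 12745 with array weights, 1039 with slide as a block, 369 within slide 1, 1862 against control 3 alone, and 1828 to 9397 on leaving out 1 array, the highest without control 3. The 6 genes of the set called higher became 1 with spike-in scaling (Slc2a3), 0 with no filter (8 at an unadjusted p under 0.05), 19 with array weights, 0 with slide as a block, 0 within slide 1, 0 against control 3 alone, and 2 to 13 on leaving out 1 array (2 without IFN-beta array 2 or control array 1 or 2, 3 without IFN-beta array 3, 13 without control 3). Leaving out control 1 or 2 counts these nearly equal arrays once. The 4 called lower became 1 with slide as a block and 1 within slide 1. The median of the set turned to -0.14 against control 3 alone, -0.020 with quantile normalization, -0.0063 with normexp and quantile normalization and -0.046 with spike-in scaling. That of all genes moved to -0.13 with spike-in scaling, 0.31 with no filter and 0.22 without control 3. The contrast of Hk1 with Hk2 turned to 0.057 with the mean of all probes and 0.60 against control 3 alone, and ran from -0.49 to 0.073 on leaving out 1 array. Causes of these changes were not tested.

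Genes that passed no test changed sign as follows. With quantile normalization the values were -0.0036 for Gpi1, -0.36 for Aldoa, -0.30 for Pgk1, -0.024 for Pgam1, -0.020 for Eno1, -0.034 for Pkm, -0.20 for Ldha, -0.033 for Pgls, -0.15 for Tkt and -0.089 for Taldo1. With normexp and percentile scaling they were -0.18 for Pgk1, -0.044 for Ldha and -0.034 for Tkt. With normexp and quantile normalization they were -0.051 for Gpi1, -0.38 for Aldoa, past the threshold there (adjusted p = 0.0419), -0.35 for Pgk1, -0.016 for Pgam1, -0.0088 for Eno1, -0.0063 for Pkm, -0.17 for Ldha, -0.0012 for Pgd, -0.097 for Tkt and -0.055 for Taldo1. With spike-in scaling they were -0.013 for Gpi1, -0.090 for Pfkfb4, -0.15 for Aldoa, -0.18 for Pgk1, -0.070 for Pgam1, -0.086 for Eno1, -0.014 for Pkm, -0.18 for Ldha, -0.075 for Pgls, -0.21 for Tkt and -0.046 for Taldo1. With the deposited table they were -0.40 for Aldoa, -0.24 for Pgk1, -0.11 for Ldha, -0.0081 for Tkt and -0.019 for Taldo1. With the mean of all probes they were 0.16 for Tpi1 and -0.0066 for Pgls, and with array weights 0.096 for Slc2a1. With slide as a block and within slide 1 alike they were 0.0070 for Slc2a1, -0.089 for Aldoa and -0.34 for Tkt. Against control 3 alone they were -0.0086 for Hk2, -0.013 for Gpi1, -0.27 for Pfkfb4, -0.41 for Aldoa, -0.35 for Pgk1, -0.24 for Pgam1, -0.033 for Eno1, -0.14 for Ldha, -0.038 for Pdk3, -0.18 for G6pdx, -0.15 for Pgls, -0.24 for Pgd, -0.11 for Rpe, -0.34 for Tkt and -0.18 for Taldo1. On leaving out 1 array the range was -0.16 to 0.14 for Slc2a1, -0.28 to 0.098 for Pfkl, -0.043 to 0.33 for Aldoa, -0.060 to 0.26 for Pgk1, -0.096 to 0.33 for Ldha, -0.073 to 0.55 for Rpe, -0.10 to 0.21 for Tkt and -0.023 to 0.37 for Taldo1.

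Replicate numbers were not taken as pairs in the main fit. Deviations of same-numbered arrays correlated by 0.072, 0.022 and 0.073, and those of differently numbered arrays by -0.091 to 0.015. The same-numbered values were small but the highest, so these correlations do not settle whether the arrays were paired. With the replicate block, 3264 genes were called, with 4 members higher and 4 lower.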

Other observations

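Of 15 genes for NADPH and glutathione, 1 was higher and 3 lower with IFN-beta, beside 11.8% and 8.04% of all genes tested. Their median was 0.17. Me1, the cytosolic malic enzyme, had 0.10, 0.10 and 0.42 on the IFN-beta arrays and 2.01, 2.24 and 1.23 on the control arrays, and fell by 1.62 ± 0.28 (SE, n = 3 each; -1.02 against control 3 alone). Idh1, the cytosolic isocitrate dehydrogenase, fell by 1.11 (-1.36 against control 3 alone) and Nqo1, a quinone reductase, by 0.74 (-1.13 against control 3 alone), while Gsr, glutathione reductase, rose by 0.84 (0.39 against control 3 alone, where its call was lost). The call of Idh1 was lost without IFN-beta array 2 or 3 (adjusted p of 0.0525 and 0.0560 in limma), and those of Nqo1 and Gsr without any array except control 3 (0.0713 to 0.139).

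Of 15 hypoxia-inducible targets outside glycolysis, 2 were higher and 2 lower, with a median of -0.24, and of -0.24 against control 3 alone and -0.04 against controls 1 and 2. Ero1a, a protein-folding oxidase, had 4.69, 4.64 and 4.65 on the IFN-beta arrays and 3.32, 3.33 and 3.90 on the control arrays, and rose by 1.14. Vegfa, a blood vessel growth factor, rose by 0.58. Neither passed against control 3 alone (0.76, adjusted p = 0.0691 for Ero1a, and 0.60, adjusted p = 0.149 for Vegfa). Ak4, a mitochondrial adenylate kinase, fell by 1.02 and Ankrd37 by 0.89, and against control 3 alone they differed by -1.37 and -1.29. The calls of Ak4 (without IFN-beta array 2, adjusted p = 0.0544), Ankrd37 (without IFN-beta array 1, 2 or 3 or control array 1, 0.0604 to 0.0850) and Vegfa (without any array except control 3, 0.0708 to 0.144) were lost in limma. Of 16 genes of the tricarboxylic acid cycle, 0 were higher (2 at an unadjusted p under 0.05, limma) and 1 lower, with a median of 0.08. The gene was Sucla2, a succinyl-CoA synthetase subunit, which fell by 0.86 (-0.88, adjusted p = 0.0680 against control 3 alone), a call lost without IFN-beta array 2 or control array 1 (0.0557 and 0.0602).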
